A study of Saccharomyces cerevisiae with 1245 samples.

Results

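The promoters described here are those of 132 protein-coding genes of budding yeast, out of the 6002 whose locus tag gives a strand (6021 in the annotation), chosen by gene symbol: every RPL, RPS and RPP gene other than RPL3, RPL4A, RPL4B, RPP1A, RPS22B and RPS28A. Each promoter was taken as a window that begins 700 bp before the coding start and ends 100 bp inside the gene, and a protein was counted as present where its deposited peak list held a position in that window. The symbol rule also took in RPP1, which encodes a subunit of RNase P and is no ribosomal protein gene; it is kept in the counts and described apart. Of the 6 genes left out, 0 had a Rap1 peak and 4 had an Abf1 peak.

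The study mapped many yeast proteins by ChIP-exo, in which a nuclease trims crosslinked DNA up to the bound protein, so that each peak is a single base position. Cells were grown in YPD medium at 25 °C to an optical density between 0.8 and 1.0 and crosslinked with 1.0% formaldehyde. Most strains carried a TAP tag on 1 protein, some carried an HA tag, and a smaller number of targets were precipitated with other antibodies. Fhl1 and Ifh1 have the same antibody label, so that antibody was not specific to either protein. What it recognises is not given in the labels. Each tagged strain measures the tagged form of its protein. Unheated ChIP-exo gave 1115 peak lists of 716 targets, 20 further lists came from cells heat-shocked for 6 min and 2 from cells heat-shocked for 3 min, and 18 lists came from MNase-ChIP-seq of histones and histone marks. The temperature of the heat shock is not given in the sources used here, and nothing in the labels says that replicate libraries came from separate cultures.

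Ribosomal protein genes are among the most heavily transcribed genes of growing yeast. At most of them the DNA-binding factor Rap1 sits upstream and the forkhead protein Fhl1 with its coactivator Ifh1 sits beside it, while the high-mobility-group protein Hmo1, the growth-responsive activator Sfp1 and the repressor Stb3 occupy subsets. TFIID, which brings the TATA-binding protein to the core promoter, SAGA, a coactivator with acetyltransferase and deubiquitinase modules, and NuA4, the acetyltransferase of histone H4, are the coactivators usually linked with these genes.

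The lists differed in length by orders of magnitude, from 1 to 7062 peaks with a median of 79, so an absent peak in a short list says little. No ribosomal protein promoter had a peak in 636 of the 1115 lists, and 432 of the 716 targets had none in any list. The remaining 284 targets reached at least 1 of the 132 promoters. Peaks at more than 50% of these promoters were found for 55 targets, against 10 targets at more than 50% of all promoters. A promoter of the set carried a median of 62.5 distinct targets, with quartiles of 55 and 70.25, where the median over all promoters was 14.

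**Figure D1:**
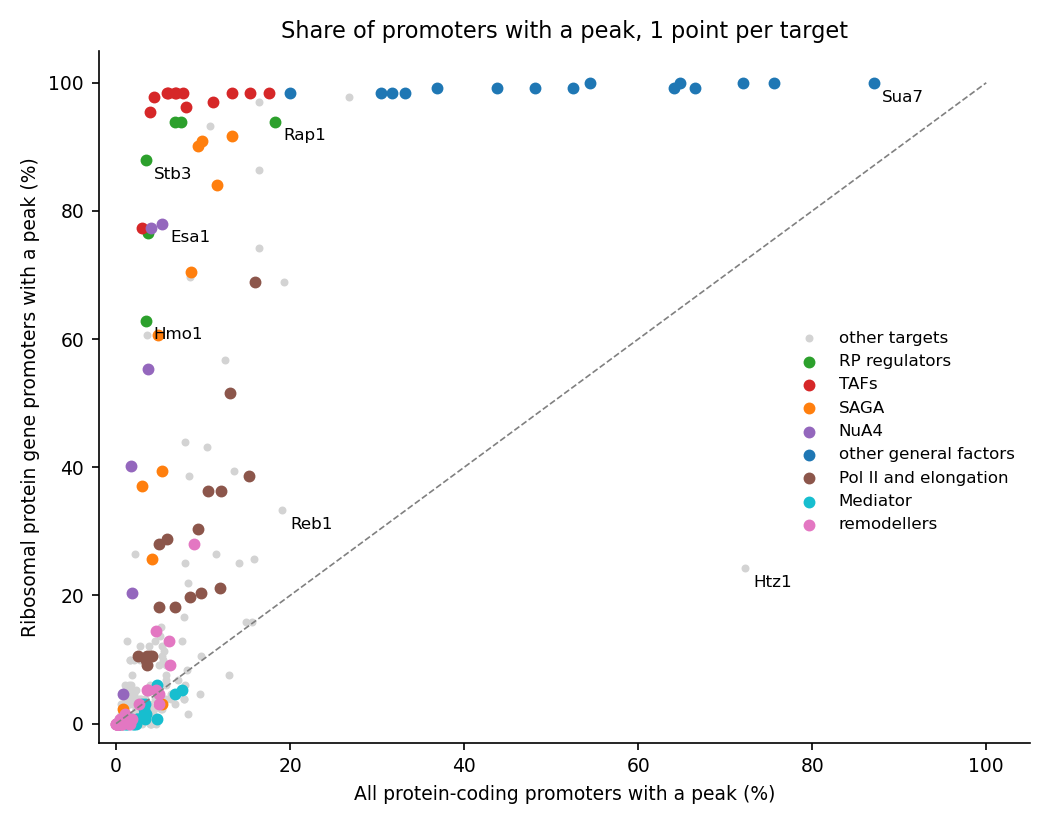
Each point is 1 of 716 targets, with the percent of all 6002 promoters that held a peak on the x axis and the percent of the 132 ribosomal protein gene promoters on the y axis; the dashed line marks equal shares. TAFs and the named regulators sit high at the left, general factors lie along the top, and the histone variant Htz1 is far below the line at 24.2% against 72.3%.

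Rap1 had a peak at 124 of the 132 promoters, where 18.3% of all promoters had one. Its 3 libraries gave 116, 118 and 124 promoters, so they nearly coincided. Fhl1 also reached 124 promoters, against 6.75% of all promoters, with 122 and 124 in its 2 libraries. Ifh1 reached 124 as well, against 7.43%, with 124 and 117. Fhl1 and Ifh1 were found at exactly the same 124 promoters. All 3 proteins were present together at 120.

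Stb3 was at 116 promoters against 3.4% of all, with 51 and 116 in its libraries of 83 and 348 peaks. Sfp1 was at 101 against 3.72%, but the value rests on 1 library: the first list of 199 peaks gave 101 promoters, and the second, which holds only 6 peaks, gave 1. Hmo1 was at 83 against 3.38%, with 83 and 69 in lists of 264 and 85 peaks, so most of the peaks in the shorter Hmo1 list lay at these genes. The 6 regulators fell into few combinations. All 6 were present at 75 promoters, all but Hmo1 at 25, Rap1, Fhl1, Ifh1 and Stb3 without Sfp1 and Hmo1 at 10, and Rap1, Fhl1 and Ifh1 alone at 7. The 7 were RPL11B, RPL14B, RPL43B, RPS27A, RPS30A, RPP0 and RPL36A. The repressors of ribosome biogenesis genes Dot6 and Tod6 were at 0 of the 132, in single lists of 20 and 18 peaks that reached 0.117% and 0.1% of all promoters.

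Most promoters had a single Rap1 position. When peaks within 10 bp in different libraries were taken as 1 position and the search was widened to 1000 bp upstream, 107 promoters had 1 position seen in at least 2 libraries, 18 had 2 and 7 had 0. In the 18 promoters with 2 positions the gap between them ran from 11.5 to 106 bp, with a median of 37.5 bp, and was at most 50 bp in 13. Peak positions repeated closely: the median SD between libraries at 1 promoter was 1 bp for Rap1, 7.07 bp for Fhl1 and 8.49 bp for Hmo1.

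The window held no Rap1 peak at RPP2B, RPS26A, RPL24A, RPL24B, RPP1, RPS28B, RPS25B and RPS29A. In 5 of these 8 a Rap1 peak lay just beyond its upstream edge in every library, with scores of 1000 in all but 1 case. RPL24A, which encodes a large-subunit protein, had it 806 bp upstream, at chromosome VII position 438740 of the sacCer3 (R64) build, in all 3 libraries. The same position is the Rap1 position of RPL30, the divergent member of the set on its other side, 351 bp from that coding start. RPL24B had it at 755 or 756 bp, RPS26A at 735 bp, RPS29A at 783 bp and RPS25B at 739 or 740 bp. RPP2B, RPP1 and RPS28B had no Rap1 peak within 1000 bp, so the description as Rap1-type promoters has no support in these lists at those 3.

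These 5 promoters share a feature: TFIIB lay far from the coding start. TFIIB (Sua7), which positions RNA polymerase II at the start site, had a peak at 132 of 132 promoters and at 87.1% of all promoters. Its 3 libraries gave 132, 132 and 131. Taken at the peak nearest the coding start, TFIIB lay between 20 and 107 bp upstream at 120 promoters, with a median of 44.3 bp. At the other 12 it lay between 351 and 540 bp upstream, with a median of 415 bp, and no promoter fell between. Among the 12 were RPS29A at 540 bp, RPL24A at 501, RPS25B at 483, RPS29B at 468, RPL24B at 433, RPS26A at 423, RPS26B at 408, RPL32 at 385, RPL29 at 378 and RPS25A at 372 bp. They hold both copies of 5 duplicated genes, and none of the 55 A and B pairs was split by this feature. The distance from Rap1 to TFIIB did not set them apart, with a median of 279.58 bp (quartiles 244 and 324) at the 12 and 271 bp (quartiles 201 and 342) at the 113 other promoters with both measured.

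**Figure D2:**
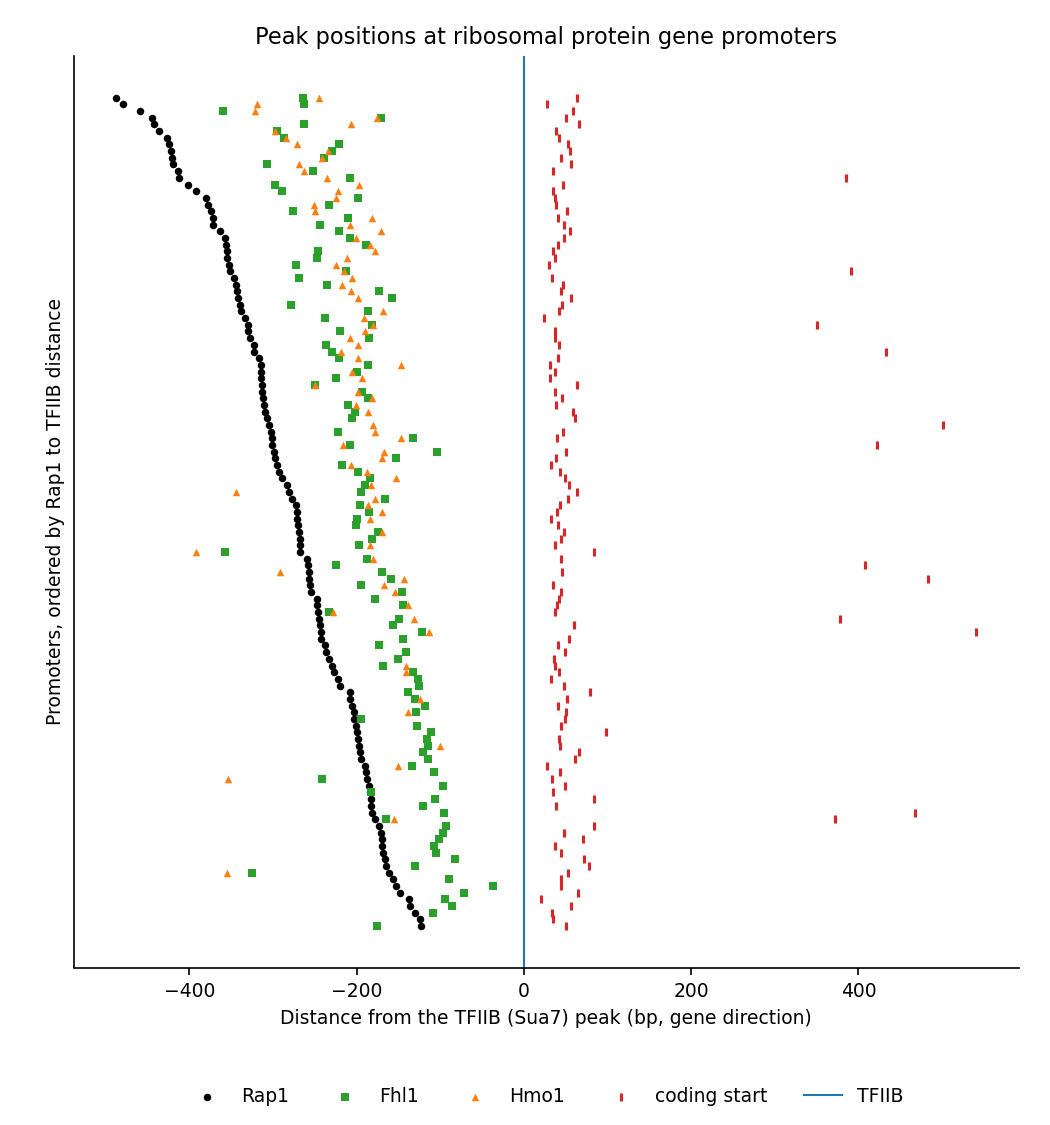
Rows are the 125 promoters with a Rap1 position in at least 2 libraries, ordered by its distance to TFIIB, and the x axis is distance in bp from the TFIIB (Sua7) peak in the direction of the gene. Fhl1 squares and Hmo1 triangles mostly lie between Rap1 and TFIIB, Hmo1 is scarce in the lower rows where Rap1 is near, and 12 coding starts stand more than 200 bp to the right of all the others.

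The window of the 12 promoters with distant TFIIB includes a long stretch downstream of it, and elongation factors had peaks there: all 26 Paf1 peaks at the 12 lay downstream of TFIIB, at a median of 404 bp, as did 28 of 29 Spt5 peaks. Paf1, a subunit of the elongation complex of the same name, had a peak at 12 of the 12 and at 2 of the other 120 promoters, against 3.57% of all. Its 2 libraries gave 14 and 14 of the 132. The 3 further Paf1 complex subunits Ctr9, Leo1 and Rtf1 gave the same counts of 12 and 2. Spt5, the elongation factor that travels with RNA polymerase II, was at 12 of 12 and 16 of 120, against 11.9% of all promoters. Rpb3, a core polymerase subunit, was at 12 of 12 and 39 of 120, against 15.3%. Shares 20 points or more higher at the 12 were found for 11 of the 12 elongation targets and all 7 polymerase targets. They were found for 0 of the 8 TFIID-only TAFs, 0 of the 9 TFIIH subunits and 0 of the 24 Mediator subunits. The TAFs and TFIIH subunits were at nearly every promoter (medians 98.1% and 99.2%), so a higher share had little room to appear for them. The limit of 200 bp that defines the group was set in the gap after the distances were seen, so these shares are descriptions. Ngg1, of the SAGA acetyltransferase module, was at 0 of the 12 and 49 of the 120. The SAGA subunits Ada2 and Sgf11 lay a median of 228 bp upstream of TFIIB. With TFIIB as far as 540 bp upstream, a window of 700 bp may not reach that region at some of the 12. The part of this window edge in the Ngg1 counts was not tested.

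Distance of TFIIB also went with the number of targets. The 12 promoters carried 66 to 113 targets with a median of 88, and the other 120 carried 8 to 135 with a median of 61. The highest counts, however, were elsewhere. RPL7A had 135 targets, RPS19A 128, RPS4A 122, RPS24A 115 and RPL29, 1 of the 12, had 113.

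**Figure D3:**
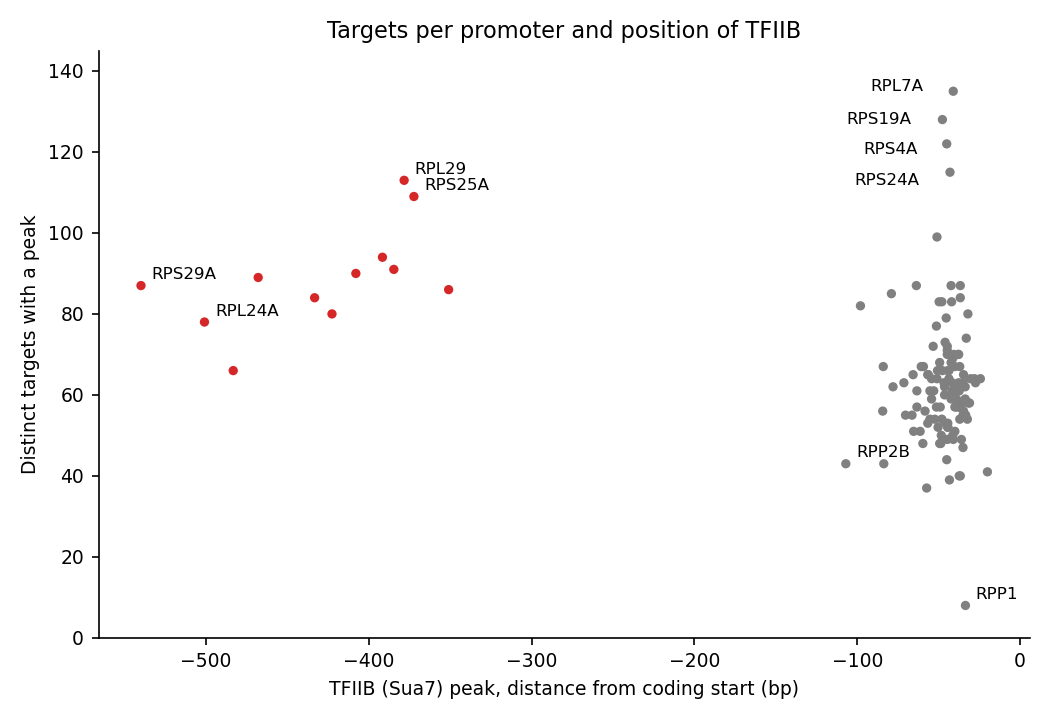
Each point is 1 of the 132 promoters, with the distance of the TFIIB peak from the coding start in bp on the x axis and the number of distinct targets with a peak on the y axis. The 12 promoters with TFIIB at least 351 bp upstream, in red, are separated by an empty stretch from the rest, RPL7A with 135 targets tops the grey group and RPP1 with 8 is lowest.

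These busy promoters were of different kinds. RPL7A and RPS19A had 12 and 11 of the 12 elongation targets and all 7 polymerase targets each, although TFIIB lay 41 bp and 47.7 bp from the coding start. The window of RPL7A reaches into another gene, the small nucleolar RNA gene SNR39B, 378 bp from its coding start. RPS4A had 0 elongation targets and instead 11 of 13 SAGA targets and 8 Mediator targets, in a region shared with a divergent gene, YJR146W, 817 bp away. RPS24A lay between, with 6 elongation and 9 SAGA targets. What part neighbouring transcription has in these counts was not tested.

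At the other end RPP1 had 8 targets, RPL18B 37, RPS28B 39, and RPS27A and RPS21A 40 each. RPP1 carried none of the 6 regulators and 0 of the 8 TFIID-only TAFs. RPL18B, RPS28B, RPS27A and RPS21A still had 6, 4, 8 and 7 of the 8 TAFs and all 9 TFIIH targets. They were short of the coactivators, with 0, 1, 2 and 0 SAGA targets.

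Besides RPL24A and RPP1, the promoters without Fhl1 and Ifh1 were RPS28B, RPL15B, RPL18B, RPS21A, RPL1A and RPP2B. Some of them had peaks of other general regulatory factors, the class of abundant DNA-binding proteins that keep promoters free of nucleosomes. RPS28B had an Abf1 peak 175 bp upstream in both Abf1 libraries with the top score of 1000, and none of Rap1, Fhl1, Ifh1, Hmo1, Sfp1 and Stb3. RPL15B and RPL18B had a Reb1 peak at 154.5 bp (mean of 2 libraries) and 171.5 bp, seen in both Reb1 libraries with a score of 1000. Their Rap1 peaks came from the third library alone, which used the Weil Lab antibody, at 524 bp with a score of 147 for RPL15B and at 187 bp with a score of 1000 for RPL18B. RPS21A had Abf1 in both libraries, though at different positions, 135 bp and 78 bp upstream, and a Rap1 peak with a score of 232 in the third library. RPL1A was the reverse: Rap1 lay 159 bp upstream in all 3 libraries with a score of 1000, with no Fhl1 or Ifh1. RPP2B, which encodes an acidic stalk protein, had none of the 6 regulators and neither Abf1 nor Reb1, and had a peak of Cbf1, another factor of this class, in 1 of 2 libraries.

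Counted over the whole set, Abf1 was at 10 promoters against 13% of all, with 6 and 10 in its 2 libraries, and at the same position in both libraries at 5 (RPS29B, RPL43B, RPS4A, RPL15A and RPS28B). Tbf1, which also binds near telomeres and at small nucleolar RNA genes, was at 3 against 3.8%: RPL41A, RPL33A and RPL33B, in both libraries. Reb1 was at 44 promoters against 19.1%, but with 15 and 43 in the 2 libraries. At only 6 promoters, RPS14A, RPL41A, RPL40A, RPL26A, RPL15B and RPL18B, did both libraries place it at 1 position. Of the 42 promoters with Reb1 and a repeated Rap1 position, Reb1 lay within 25 bp of Rap1 at 29, in 1 library at 24 of them and in both libraries at 5 (RPS24A, RPL1B, RPS25A, RPS20 and RPL11A). At none of the 29 did both libraries place Reb1 within 10 bp of each other.

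The Rap1 partners Rif1 and Rif2, known for limiting telomere length, were seen at the Rap1 position itself. Rif2 was at 35 promoters, against 2.22% of all, with 35 and 0 in lists of 276 and 15 peaks. Rif1 was at 17, against 1.28%, with 16 and 7. All 35 and all 17 lay within 25 bp of a Rap1 position, at a median of 2.67 bp for either protein. Rif1 repeated in both libraries at RPS23A, RPS23B, RPL42B, RPL31B, and the shared region of the divergent genes RPL13B and RPS16A.

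The general transcription factors left almost no promoter uncovered. The TFIIH subunit Tfb4 was at 132 of 132 against 72.1% of all, with 132 in each library, and the mRNA capping enzyme subunit Cet1 at 132 against 54.5% in its single library. The TATA-binding protein Spt15 was at 130 against 30.5%, with 130, 130 and 88 in its unheated libraries. TFIID stood out more from other promoters. Its subunit Taf1 was at 126 against 3.9%, with 126 in the first library and 33 and 28 in lists of only 55 and 37 peaks. Taf11 was lowest at 102 against 2.97%, from 1 library. Across the 8 TFIID-only TAFs the median share was 98.1% of these promoters, and 7.89% of all promoters. For 9 TFIIH subunits the 2 medians were 99.2% and 48.2%.

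Among regulators of the TATA-binding protein, the NC2 subunit Bur6 was at 129 promoters against 26.8%, with 55, 65 and 128 in its libraries. The coactivator Sub1 was at 91 against 19.3%, with 60, 91 and 53. Rpb2, the second largest polymerase subunit, was at 91 against 15.9%, with 89 and 38.

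Measured from TFIIB, the median order from upstream was Rap1 at 265 bp, NuA4 subunits Esa1 at 237 and Yng2 at 225 bp, Sfp1 at 232 bp, Stb3 at 215 bp, Hmo1 at 197 bp, Ifh1 at 194 bp and Fhl1 at 186 bp, then Bur6 at 62.7 bp, Taf13 at 27.3 bp, Taf1 at 23.3 bp and Spt15 at 14.2 bp. The bromodomain protein Bdf1, found at 98 promoters against 16.4%, lay downstream, at a median of 47.2 bp past TFIIB. Each median is over the promoters that had the target, 83 for Hmo1 and 124 for each of Ifh1 and Fhl1. The medians of these neighbours differ by less than 12 bp, and they do not give an order within promoters. Measured from Rap1, the median distance was 112 bp for Hmo1 and 77 bp for Fhl1, again over different promoters. The SD between libraries of 1 promoter was 8.49 bp for Hmo1, 8.49 bp for Ifh1 and 7.07 bp for Fhl1.

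SAGA subunits varied widely. Sgf73, the deubiquitinase module's anchor, was at 121 promoters against 13.4% of all, Spt7 at 120 against 9.93%, Sgf11 at 119 against 9.45%, Ada2 at 111 against 11.6%, Ubp8, the deubiquitinase, at 80 against 4.8%, Spt3 at 52 against 5.26%, Ngg1 at 49 against 2.95% and the acetyltransferase Gcn5 at 34 against 4.18%. Counts differed between lists made with the TAP tag and with the Weil Lab antibody, and also among TAP lists of 1 subunit; the part of the antibody in this was not tested. Ada2 gave 67 and 110 promoters in its TAP libraries of 274 and 749 peaks, and 3 in the Weil Lab antibody list of 688 peaks. Sgf73 gave 120 and 43 with TAP and 11 with the Weil Lab antibody, whose list holds 363 peaks. Gcn5 gave 30 and 5 with TAP and 5 with the Weil Lab antibody in 283 peaks. Thus, where both were used, the antibody list was lower than or equal to every TAP list. Ada1, measured with the Weil Lab antibody alone, was at 4 promoters in 490 peaks, 3.03% against 5.28% of all. In the Weil Lab lists of Ada2, Sgf73 and Gcn5 the shares were 2.27%, 8.33% and 3.79%. The shares of all promoters in those lists were 4.98%, 4.05% and 1.90%. The catalytic NuA4 subunit Esa1 was at 103 against 5.25%, with 28 and 102 in lists of 37 and 594 peaks, and its partner Yng2 at 102 against 4%, with 102 and 2 in lists of 210 and 15 peaks.

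Several large complexes had few peaks at these promoters, and their medians over all promoters were low too. The 24 Mediator targets peaked at Nut1 with 8 promoters against 4.75% of all, with 1 and 8 in its libraries. Medians were 0.758% of these promoters for the 16 head and middle subunits, against 2.34% of all, and 0.379% for the 8 tail and kinase subunits, against 1.83%. The 12 subunits of RSC, a nucleosome remodeller, had a median of 0.379% against 1.08%, and the SWI/SNF subunit Swi3 was highest among remodellers with 37 promoters against 8.93%, from 37 and 0 in lists of 621 and 52 peaks. Htz1, the histone H2A.Z that flanks most yeast promoters, was at 32 against 72.3%, with 32 and 8 in its libraries, and lay a median of 484 bp upstream of TFIIB. The histone mark H3K4me3 was at 43 and 28 of the 132 in its 2 MNase-ChIP-seq lists, 32.6% and 21.2%, where 37.7% and 30.6% of all promoters had it.

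Hmo1, present at some of these promoters and absent from the others, went with the distance between Rap1 and TFIIB. Promoters with Hmo1 had Rap1 farther from TFIIB, at a median of 314 bp (quartiles 269.5 and 360 bp, n = 83), and those without had it at 191.5 bp (168 and 230 bp, n = 42). Leaving out the 12 promoters with distant TFIIB gave 314 bp and 191.5 bp again. In steps of 100 bp, Hmo1 was at 5 of 30 promoters with 100 to 200 bp between Rap1 and TFIIB, at 27 of 42 with 200 to 300 bp, at 37 of 39 with 300 to 400 bp and at 14 of 14 with 400 to 500 bp. The 3 shortest distances were those of RPL35B, RPL1A (124 bp) and RPL37B (131 bp), all without Hmo1. The longest was RPL31B at 487 bp, with Hmo1 in both libraries. Exceptions included RPL13A, RPS25A, RPS22A and RPS30B, with Hmo1 in spite of less than 200 bp, and RPS2 and RPL11A, without it beyond 300 bp. At RPL13A and RPS22A the Hmo1 peak was the same peak as at the divergent members RPS16B and RPL39. There it lay farther upstream than the Rap1 position nearest TFIIB (213 and 221 bp from the coding start). From the coding start, Rap1 was farthest at RPL24A (806 bp, the position shared with RPL30), RPL32 (797 bp) and RPS29A (783 bp), and nearest at RPL36A (158 bp), RPL1A (159 bp) and RPL37B (164 bp).

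By Hmo1, 14 targets differed in share by 20 points or more between the 2 groups of promoters, all of them higher with it, and 9 of the 14 belong to SAGA or NuA4. The differences were largest for God1, a protein of no assigned role here, at 69 of 83 against 11 of 49 promoters, in a list where 3.57% of all promoters had it. Ubp8 was at 66 and 14, Yng2 at 78 and 24, Sfp1 at 76 and 25, Eaf5 at 58 and 15, Eaf6 at 45 and 8, Spt3 at 44 and 8, Esa1 at 76 and 27, and Ngg1 at 42 and 7. Nhp6a, an HMG-box protein like Hmo1, was at 46 and 11, against 10.5% of all promoters. Several of these rest on 1 library, since the second list gave 1 promoter for God1, 2 for Yng2, 4 for Eaf6 and 6 for Nhp6a. Ngg1 was at 0 and 49 promoters in its lists of 36 and 195 peaks, Ubp8 at 80, 2 and 3 in lists of 272, 22 and 44 peaks, and Spt3 at 13, 50 and 0 in lists of 136, 310 and 41 peaks. Of the TFIID-only TAFs and the TFIIH subunits, 0 of 8 and 0 of 9 differed by 20 points. Most of them were at nearly every promoter (medians 98.1% and 99.2%). A difference of that size therefore had little room to appear, and these counts do not show that they are unrelated to Hmo1. In the other direction the largest differences were Abf1, at 2 of 83 and 8 of 49, and Taf11, at 61 and 41, followed by Fun30, Sub1, RPB11 and Rxt1, these 4 by less than 8 points.

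**Figure D4:**
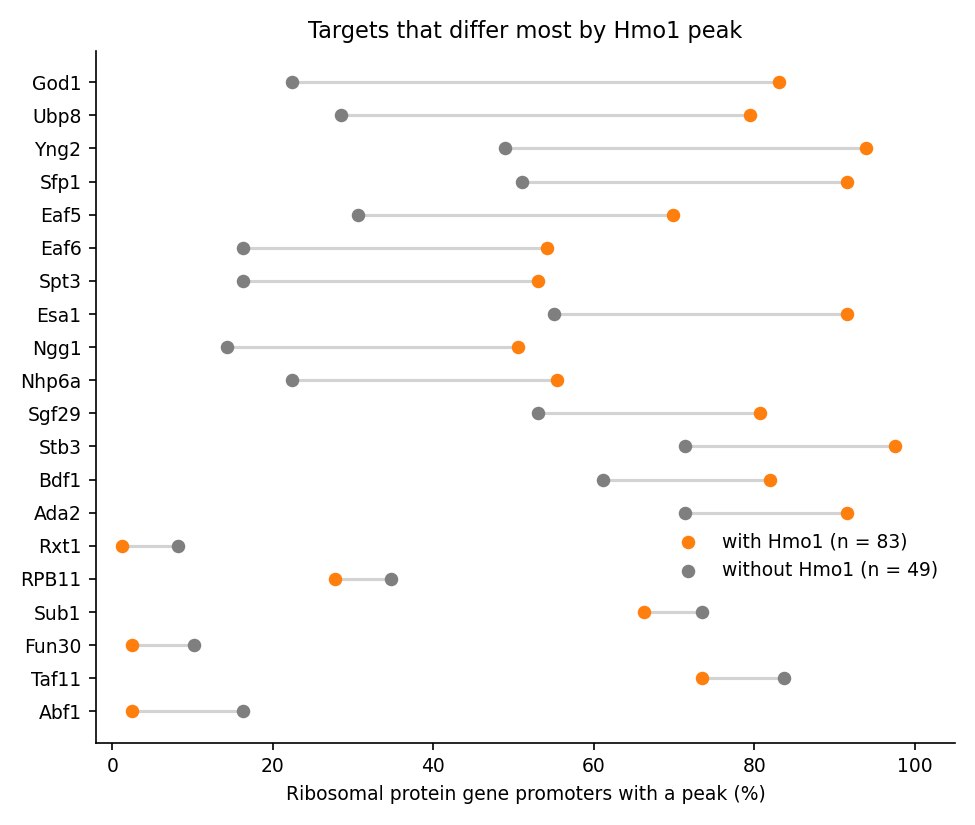
For each target the orange point is the percent of the 83 promoters with an Hmo1 peak that also held that target, and the grey point the percent of the 49 without. God1 to Ada2, the upper 14, lie at least 20 points higher with Hmo1, and the lower 6 have small differences the other way.

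Since Hmo1 and distance go together, the same targets were set side by side at 1 distance. Among the 42 promoters with 200 to 300 bp between Rap1 and TFIIB, Ubp8 was at 20 of 27 with Hmo1 and 4 of 15 without. Spt3 was at 16 of 27 and 0 of 15, Ngg1 at 18 of 27 and 1 of 15, and God1 at 22 of 27 and 4 of 15. Of the NuA4 subunits, Esa1 was at 24 of 27 and 11 of 15, Yng2 at 25 of 27 and 9 of 15, Eaf5 at 19 of 27 and 7 of 15, and Eaf6 at 16 of 27 and 2 of 15. At 100 to 200 bp only 5 promoters had Hmo1, among them RPL13A and RPS22A by a peak shared with a divergent member. There Ubp8 was at 4 of 5 with Hmo1 and 9 of 25 without, and Esa1 at 5 of 5 and 14 of 25. Ngg1, at 1 of 5 and 5 of 25, and Eaf6, at 1 of 5 and 4 of 25, had about equal shares with and without Hmo1 at this distance.

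Most ribosomal proteins of yeast are encoded by 2 gene copies, and 55 pairs have both copies in the set. Sharing, the number of targets at both copies divided by the number at either, had a median of 0.640 over the 55 pairs (quartiles 0.566 and 0.718) and 0.614 over the 8571 other pairs of promoters (0.493 and 0.697). The 2 distributions overlap almost wholly. Pairs with the most alike copies included RPL19 with 0.826, RPS29 with 0.814, RPS23 with 0.812 and RPL27 with 0.779. They were least alike at RPL15 with 0.213, RPL7 with 0.368, RPL1 with 0.38, RPS24 with 0.421 and RPS4 with 0.450.

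The unlike pairs differed in several ways. RPL7A carried 85 targets that RPL7B lacked, and RPL7B 1 that RPL7A lacked. RPS24A and RPS4A each carried 64 that the B copy lacked. RPL15A and RPL15B shared 17 targets, with 32 at A alone and 31 at B alone, RPL15A having Fhl1, Ifh1, Sfp1 and Stb3 in 1 library each and RPL15B Reb1 instead. RPL1B had Fhl1, Ifh1, Sfp1 and Stb3 and RPL1A did not. Over the 55 pairs, Fhl1 was at 1 copy only in 6, among them RPL24, RPS21, RPP2, RPL1 and RPL15, and Ifh1 at 1 copy only in the same 6. For RPL24 this depends on the window edge, since the Fhl1 and Ifh1 peaks counted at RPL30 lay beyond the RPL24A window. Hmo1 was at 1 copy only in 19 and Sfp1 in 22, and in 27 pairs none of the 6 regulators was at 1 copy only. The distance from Rap1 to TFIIB differed by a median of 87 bp between copies and 86.2 bp between other pairs, so copies were no closer to each other in spacing. The 10 promoters least like the others by mean sharing were RPP1, RPL15B, RPS19A, RPL7A, RPS4A, RPL26A, RPS28B, RPL1A, RPL29 and RPL32.

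Both copies of RPL26 carried the polymerase III machinery of tRNA transcription: 15 of 17 polymerase III, TFIIIB and TFIIIC targets had a peak at RPL26A and 15 of 17 at RPL26B, while 1 other promoter, RPS24A, had 1. At RPL26A the tRNA gene TRR4 lies 632 bp upstream, the only tRNA gene inside any of the 132 windows, with the peaks inside the window between 651 and 694 bp. RPL26B has no annotated tRNA gene within 1500 bp of its coding start, and its peaks lay between 477 and 600 bp upstream.

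Neighbouring genes complicate some windows. The nearest gene upstream was divergent at 71 promoters, on the same strand at 53 and a noncoding gene whose strand was not read at 8, and at 76 promoters the window overlapped that of a divergent protein-coding gene, so their peaks may be counted for both genes. In 5 cases both divergent genes were in the set.

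Heat shock, to which yeast responds with reduced ribosome synthesis, was profiled for 15 targets with an unheated list of the same antibody. At these promoters SAGA peaks were far fewer in the heated lists than in the longest unheated list of each subunit. Sgf11 was at 118 and 38 promoters in its 2 unheated libraries and at 2 and 3 in its 2 heated ones, against 9.08% of all promoters with a peak in a heated library. The heated lists held 297 and 667 peaks, the unheated 614 and 239, so that 1 heated list was longer than either unheated list. Spt7 was at 118, 0 and 104 in unheated libraries, the 0 from a list of 42 peaks, and at 10 and 19 in heated ones of 1065 and 1674 peaks, against 18.9%. Ubp8 was at 80, 2 and 3, the last 2 from lists of 22 and 44 peaks, and at 2 and 5 in heated lists of 544 and 1038 peaks, against 14.1%. The heated and unheated ranges overlap for Spt7 and Ubp8 through these short unheated lists, and do not overlap for Sgf11. Of all promoters, 9.45% had an unheated peak of Sgf11, 9.93% of Spt7 and 4.8% of Ubp8, so Spt7 and Ubp8 reached more of all promoters in heated lists.

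Spt15 was at 130 and 130 promoters unheated and at 30 after 3 min, against 16.6% of all, and all 30 also had an unheated peak. The heated peaks were often elsewhere in the window. Their median was -70.3 bp from TFIIB, negative being upstream, with a first quartile of -412 bp. Unheated peaks had a median of -15 bp and a first quartile of -21.3 bp. Rpb3 was at more promoters, 57 after 3 min where unheated libraries gave 38 and 39, against 15.1%, of which 33 had no unheated peak. Rsc9, a subunit of RSC, was at 0 and 0 promoters unheated, in lists of 46 and 79 peaks, and at 73 and 48 heated, in lists of 1714 and 1455 peaks, against 29.7% of all promoters. Of the 75 promoters in either heated list 46 were in both. Rsc9 peaks lay a median of 199 bp upstream of TFIIB. Heated Rsc9 peaks were at 55 of the 83 promoters with Hmo1 and at 20 of the 49 without. The other RSC subunits with 2 heated lists, Rsc3 and Rsc1, were not higher in both of them than in both unheated lists. Rsc3 was at 7 and 0 unheated and 0 and 31 heated, the 31 being 23.5% where 18.6% of all promoters had it in that list of 1316 peaks. Rsc1 was at 12 and 2 unheated and 9 and 0 heated, the 9 being 6.82% where 7.56% of all promoters had it. Rsc58, Rsc6 and Sth1 were at 2 or fewer in every list.

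Only 4 promoters, RPL41A, RPS4A, RPL15B and RPS3, had at least 2 of the 3 SAGA subunits in heated lists, and 22 had at least 1. Spt7 was at 21 of these 22. Its heated lists had peaks at 7.58% and 14.4% of the ribosomal protein promoters, against 12.7% and 18.0% of all promoters. The 22 therefore do not stand out from promoters in general by heated Spt7. Over the 15 targets the share of promoters with a peak changed by a mean of -9.56 points (SD 29.98, n = 15 targets), lower in 8, higher in 4 and at 0 change in 3, and an exact two-sided sign-flip permutation test over targets gave p = 0.231. The smallest p for 15 targets that all change is 6.10e-05, and the 3 targets at 0 make the smallest p larger here. The 15 targets include several subunits of SAGA and of RSC. Subunits of 1 complex are not independent units, so this p does not measure how complexes vary.

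**Figure D5:**
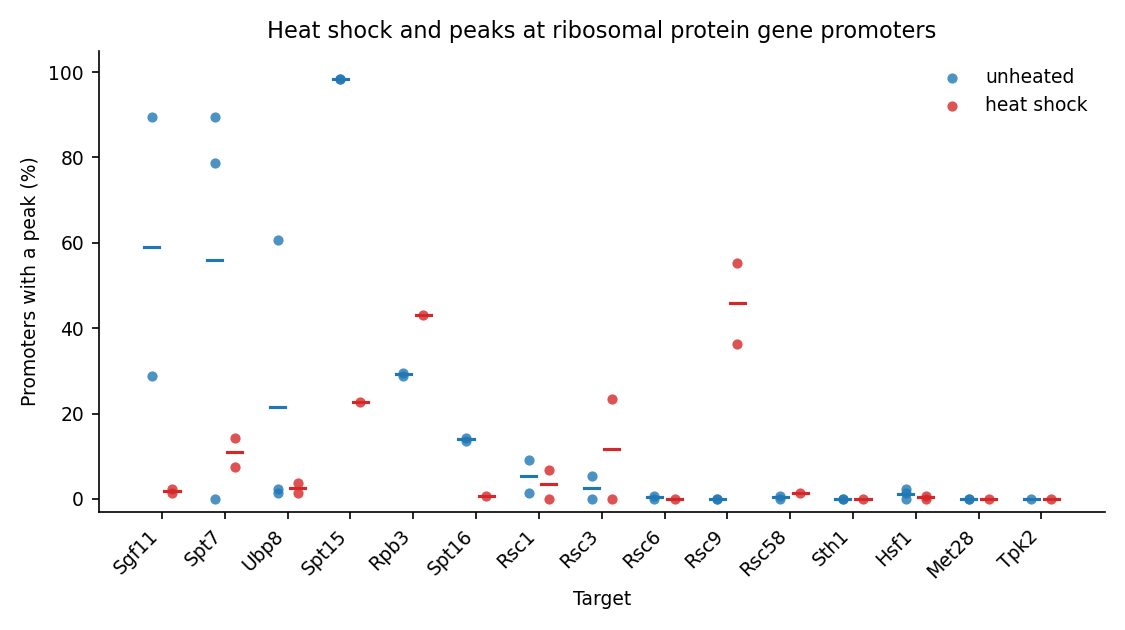
Points are libraries, unheated in blue and heat-shocked in red, with the percent of the 132 promoters that held a peak on the y axis and bars for means. Sgf11, Spt7 and Spt15 reach up to 98.5% unheated and 22.7% or less heated, and Rsc9 lies at 0% unheated and at 36.4% and 55.3% heated.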

How the data were processed

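ChIP-exo and MNase-ChIP-seq peak lists were used as deposited, 1 list per library. Per the submitters' processing notes, the tools were BWA, Picard and SAMtools and the build sacCer3; versions are not given in the sources used here. The lists hold 1 bp positions with the name ChExMix, per the file contents, and a deposited score between 66 and 1000 whose definition by the authors is not given in the sources used here, so that a score served to order the peaks of 1 list and nothing else. Total reads per library are not in these lists, so depth is unknown and list length is printed beside counts.

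Coding starts came from RefSeq R64 (6002 of 6021 protein-coding genes with a strand in the locus tag). A target counts as present with a peak in at least 1 unheated library. Its position is its highest-scored peak, averaged over libraries, except TFIIB (nearest to the coding start). Members, lists and gene-naming rules (promoters without Rap1, the extremes in targets, sharing and distance, and tRNA neighbours) were chosen with earlier results of these data known. Genes and targets outside these rules were named after their values were seen. Counts stand beside the share of all promoters, with no enrichment test. Heat shock was tested over targets by exact permutation. Python 3 with numpy, scipy and matplotlib was used, and the code was checked on simulated peaks. Alternatives covered windows, scores, libraries and replicates. One sample with contradictory labels was left out, and promoter sequences were not used here. Results that need some genes by name are not reported here.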

Additional observations from a re-analysis of the deposited data

Results flagged for a closer look

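The heat shock differences of SAGA and RSC targets at the ribosomal protein promoters were set against each other. The share of the 132 promoters with a peak changed by a mean of -40.4 points (SD 19.6) over 3 SAGA targets and by 8.96 points (SD 18.5) over 6 RSC targets, a difference of -49.3 points. An exact two-sided permutation over targets gave p = 0.0119, the smallest that 84 assignments allow, and this test was chosen after the data had been seen. Mean unheated shares were 21.5% to 59.1% for the SAGA targets and 0% to 5.30% for the RSC targets, so the RSC shares had little room to fall. Subunits of 1 complex are also not independent units, so this p does not measure how complexes vary. With the share of all promoters subtracted in each library the difference was -49.65 points. Without Rsc9, the only RSC target that was higher in both heated libraries than in both unheated ones, the RSC mean was 1.59 points (SD 4.33) and the difference was -42.0 points (exact permutation p = 0.0179, the smallest for 56 assignments). With libraries under 100 peaks left out, 3 SAGA and 3 RSC targets were left and the difference was -66.7 points (exact permutation p = 0.1, the smallest that 20 assignments allow). SAGA targets were measured in lists of 22 to 1674 peaks and RSC targets in lists of 1 to 1714, and the part of list length in the difference was not tested.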

How the results depend on the processing

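Of 272 recomputed values 252 were counted as unchanged, and none changed direction. Unchanged meant within 1.5 times for shares and counts, and within the spread of libraries for distances and of gene pairs for sharing. For the heat shock mean it meant only an exact permutation p on the same side of 0.05, and the size of the mean was not compared. With the top-scored 50% of each list the share of promoters was 47.7% for Sfp1, 3.03% for Abf1, 6.82% for Reb1 and 0.758% for Tbf1. Asking for a peak in every library of a target gave 0.758% for Sfp1, 38.6% for Stb3, 4.55% for Abf1, 10.6% for Reb1, a median of 33.5 targets per promoter, 30 targets at more than 50% of promoters and 6 targets differing by 20 points with Hmo1. A window of 500 bp upstream gave 33 such targets in place of 14, and a median Rap1 distance of -305 bp in place of -329 bp. Without promoters whose window overlaps that of a divergent gene (56 left) the Rap1 distance was -310.67 bp, the distance from the highest-scored Rap1 peak to TFIIB 244 bp in place of 265 bp, and the Tbf1 share 3.57%. Leaving out 1 replicate number gave 0.758% to 76.5% for Sfp1, 38.6% to 87.9% for Stb3, 4.55% to 7.58% for Abf1 and 11.4% to 33.3% for Reb1. Over 54 leave-one-out fits the heat shock mean ranged from -11.6 to -4.83 points with p from 0.167 to 0.463, and over the other alternatives p ran from 0.0840 to 0.334 (exact permutation). Fhl1 and Ifh1 have no TAP library, so that alternative has no value for them. The alternatives on list length and on a window counted from TFIIB were chosen after the data had been seen. No paired analysis was possible because heated and unheated libraries of a target share no replicate number. List length limits what an absent peak shows.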
